A study of Mus musculus with 3 samples.

Results

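R2 is a cluster of macrophages defined by the authors from single-cell RNA sequencing of mouse wounds. Its members were the cells whose deposited cluster label was R2, out of 4374 cells in all. All of them came from the library of wounds treated with urinary bladder matrix (UBM, a decellularised extracellular matrix scaffold), where R2 made up 11.1% of 2280 cells (exact Clopper-Pearson 95% interval 9.88 to 12.5%) and 2026 cells carried another label. No cell of the saline library (341 cells) or the polycaprolactone library (PCL, a synthetic polyester, 1753 cells) carried the label. R2 is therefore set against those 2026 cells of the UBM library throughout. The macrophages had been sorted from the quadriceps of mice 1 week after surgery that removed a volume of the muscle. The labels used here state no genotype, strain or age, and not how many mice went into a library. There was 1 library per treatment, so no difference was tested, and every interval below covers counting error only. The clusters were made from the same genes, so all values of R2 against other cells are descriptions.

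CD163 is a surface receptor by which macrophages take up complexes of haemoglobin and haptoglobin, and it is widely used to mark macrophages of a scavenging, tissue-resident or interleukin-4-conditioned kind. Macrophages of this kind commonly carry the mannose receptor and produce chemokines of the CC family, which draw in other leukocytes through G-protein-coupled receptors. CCL24 (eotaxin-2) attracts eosinophils through CCR3, and CCL8 attracts monocytes and lymphocytes.

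R2 cells held 2162838 unique molecular identifiers (UMIs), against 12423438 in the other UBM cells. An R2 cell held between 1913 and 21383 UMIs with a median of 8365, against 1819 to 24974 with a median of 5266 in the other UBM cells. The median R2 cell had 2335.5 detected genes, against 1701.5 in the other UBM cells. Mitochondrial UMIs made up a median of 3.24% in R2 and 2.27% in the other UBM cells, and ribosomal protein UMIs 16.2% in R2 and 20.6% in the other UBM cells. The R2 median of UMIs was the highest of the 9 clusters, so shares of cells with a UMI are also given at an equal depth of 2500 UMIs drawn from each cell, which left 246 R2 cells and 1872 other UBM cells. No R2 barcode recurred in another library, although 1 UBM barcode was shared with saline and 5 with PCL.

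All 9 general macrophage markers were detected in R2. The complement gene C1qa stood at 3688 CPM (UMIs per 1000000) in R2 and 2534 CPM in the other UBM cells, whereas the lysozyme gene Lyz2 stood at 2391 CPM in R2 and 6775 CPM in the other UBM cells. Of the eosinophil markers in the table, Siglecf and Ccr3 had no UMI in R2, and the 4 haemoglobin genes in the table had none either. The 8 muscle-fibre markers summed to 8.78 CPM in R2 and 54.7 CPM in the other UBM cells, with Acta1 at 0 in R2, and the 6 fibroblast markers to 23.6 CPM in R2 and 32.5 CPM in the other UBM cells, with Pdgfra at 0 in R2. The 4 natural killer cell markers in the table summed to 0.925 CPM in R2 and 43.4 CPM in the other UBM cells. Some other lists summed higher in R2. The 6 monocyte markers summed to 3525 CPM in R2 and 1485.5 CPM in the other UBM cells, where FP1 had the highest sum at 2725 CPM; most of the R2 sum came from Chil3 and the fibronectin gene Fn1, while Ly6c2 stood at 4.16 CPM in R2 and 3.94 CPM in the other UBM cells. The 6 endothelial markers summed to 49.9 CPM in R2 and 19.0 CPM in the other UBM cells, most of it from Pecam1, while Kdr, Cldn5 and Tie1 had no UMI in R2. The 6 neutrophil markers, by contrast, summed to much the same, 65.2 CPM in R2 and 66.4 CPM in the other UBM cells, nearly all from Csf3r in R2. Csf3r stood at 61.0 CPM in R2 and 36.2 CPM in the other UBM cells. S100a8 and S100a9 stood at 0.925 and 1.39 CPM in R2, against 15.5 and 11.9 CPM in the other UBM cells. The part of these transcripts in the results below was not tested.

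R2 is described here by 6 marker genes, which were chosen with earlier results of these data known. All 6 were highest in R2 among the 8 UBM clusters of at least 20 cells, which is a description given that choice. Cd163 was detected with 0 to 70 UMIs per R2 cell and a median of 11. It stood at 1683 CPM in R2 (1628 to 1738) and 96.6 CPM in the other UBM cells (91.2 to 102), a 17.4-fold difference (16.3 to 18.6). The next clusters were RP3 at 487 CPM, RP1 at 177 CPM and F1 at 138 CPM, and R3 was lowest at 7.28 CPM. R2 thus held 75.2% of all Cd163 UMIs of the library in 11.1% of its cells. Those cells were deeper than the others and held 2162838 of the 14586276 UMIs of the library.

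Ccl24 was detected with 0 to 323 UMIs per R2 cell and a median of 26. It stood at 5847 CPM in R2 and 403 CPM in the other UBM cells, which is 14.50-fold (14.03 to 14.98). F1 at 1119 CPM (998 to 1251) and R1 at 1045 CPM (1004 to 1086) followed and could not be ordered within their intervals, and RP2 was lowest at 81.4 CPM. Ccl8, by contrast, was shared with a neighbour. Every R2 cell had at least 1 Ccl8 UMI, with a median of 295 and a maximum of 1516, and the level was 44733 CPM in R2 and 6573 CPM in the other UBM cells (6.81-fold, 6.74 to 6.87). RP3 reached 37982 CPM of Ccl8, and the remaining clusters lay between 468 CPM in R1 and 11806 CPM in F1.

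Rnase2a, an eosinophil-associated ribonuclease, was found in a smaller share of R2. It ran to 0 to 77 UMIs per R2 cell with a median of 3, and stood at 1224 CPM in R2 and 121 CPM in the other UBM cells (10.1-fold, 9.50 to 10.8). RP3 came next with 722 CPM. The log2 ratio of Rnase2a, 3.24 with 10 CPM added, was 2.48 when each other cluster was given equal weight. Gja1 encodes connexin 43, a subunit of gap junctions, and had 0 to 21 UMIs per R2 cell with a median of 3. Its level was 468 CPM in R2 and 57.3 CPM in the other UBM cells (8.16-fold, 7.41 to 8.998), and here RP1 rather than RP3 came second, at 173 CPM. Npl, the lyase that splits sialic acid, had 0 to 22 UMIs per R2 cell with a median of 2, and stood at 349 CPM in R2 and 45.2 CPM in the other UBM cells (7.71-fold, 6.90 to 8.61). RP3 at 122 CPM (101 to 146) and R3 at 116 CPM (98.5 to 135) followed Npl in R2 and overlapped each other. Single cells of the groups overlapped for every marker: per 10000 UMIs of a cell, the highest Cd163 value was 63.0 in R2 and 70.4 among the other UBM cells.

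**Figure D1:**
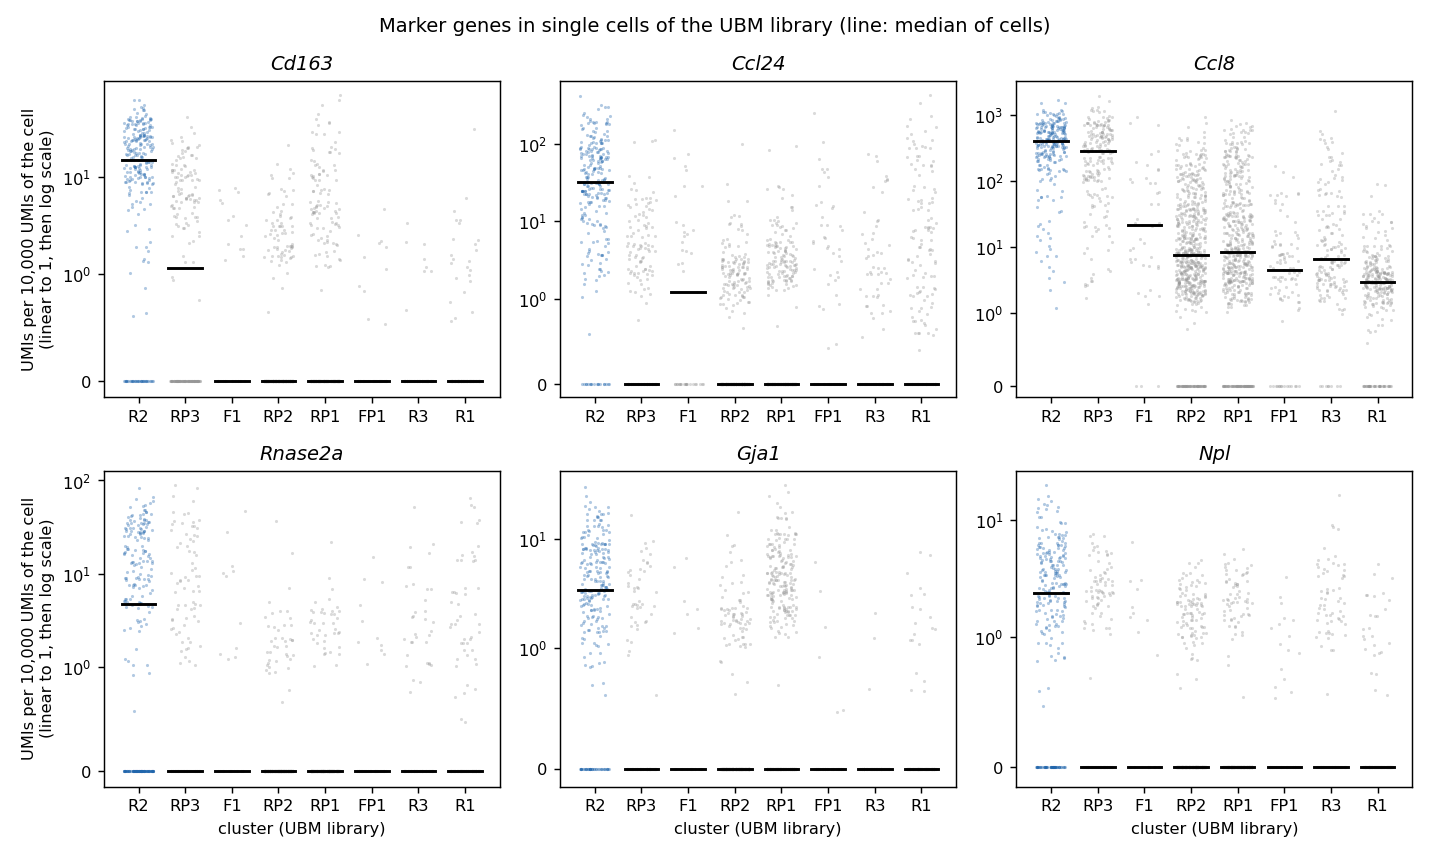
UMIs of each marker gene per 10000 UMIs of the cell (vertical axis, linear up to 1 and logarithmic above) in every cell of the UBM library, by cluster (horizontal axis, clusters of at least 20 cells); each point is 1 cell and the bar is the cluster median. The R2 median is the highest for all 6 genes, 15.2 for Cd163 and 32.4 for Ccl24, while for Cd163 the median is 0 in every cluster other than R2 and RP3.

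For all 6 markers a larger share of cells had a UMI in R2 than in the other UBM cells. Cd163 had a UMI in 218 R2 cells (85.8%, 80.9 to 89.9%) and in 16.7% of the other UBM cells, and after thinning in 79.7% of R2 and 11.7% of the other UBM cells. In R3, which held the least Cd163 and had a median of 7421 UMIs per cell, 4.62% of cells had a UMI. Ccl8 was found more widely outside R2: 86.2% of R1 cells, with a median of 7461 UMIs, had at least 1 UMI at a level of 468 CPM. A Ccl8 UMI alone therefore does not mark an R2 cell. The part of free RNA in these UMIs was not tested. After thinning, Ccl24 was detected in 87.0% of R2 cells and 20.6% of the other UBM cells, Rnase2a in 51.2% of R2 cells and 9.03% of the other UBM cells, Gja1 in 54.5% of R2 cells and 11.4% of the other UBM cells, and Npl in 45.5% of R2 cells and 8.97% of the other UBM cells.

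The sequences before the start of 3 markers are shown because these genes were high together in R2 and are used below to state which motifs were found. They are the 250 bases upstream of the RefSeq start on GRCm38.p6, printed 5′ to 3′ on the strand of the gene, at chr6:124304401-124304650 on the plus strand for Cd163, chr14:51256113-51256362 on the minus strand for Rnase2a, and chr10:56377050-56377299 on the plus strand for Gja1. Capitals mark motif matches on either strand.
Cd163: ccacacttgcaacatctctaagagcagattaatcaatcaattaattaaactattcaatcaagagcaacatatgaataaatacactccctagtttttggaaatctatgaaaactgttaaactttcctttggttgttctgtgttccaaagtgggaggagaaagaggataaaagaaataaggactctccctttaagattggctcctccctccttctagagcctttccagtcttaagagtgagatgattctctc
Rnase2a: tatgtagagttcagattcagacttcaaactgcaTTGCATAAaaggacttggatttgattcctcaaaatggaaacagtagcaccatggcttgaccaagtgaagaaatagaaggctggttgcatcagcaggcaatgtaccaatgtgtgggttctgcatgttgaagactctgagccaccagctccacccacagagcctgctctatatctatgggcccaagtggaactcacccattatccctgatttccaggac
Gja1: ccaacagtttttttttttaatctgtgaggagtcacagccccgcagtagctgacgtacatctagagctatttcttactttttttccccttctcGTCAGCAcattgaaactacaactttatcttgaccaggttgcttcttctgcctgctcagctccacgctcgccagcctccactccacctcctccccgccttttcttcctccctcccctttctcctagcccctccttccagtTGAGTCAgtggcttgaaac

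These motifs were searched in 12 start sites of the 11 genes with an entry, out of the 15 genes that stood highest in R2 against the other UBM cells. PU.1 (GAGGAAGT), the master factor of myeloid cells, was matched in none of the 12 and in 2.44% of all 32851 RefSeq promoters of the same length. MAF (TGCTGAC) was matched in Gja1, 158 bases before the start, and in 3.81% of all promoters. AP-1 (TGANTCA) was matched in Gja1, 19 bases before the start, and in 6.75% of all promoters. C/EBP (TTGCNNAA) was matched 217 bases before the start of Rnase2a, 112 bases before that of Ch25h and 135 bases before the second start of Rnase4, and in 9.56% of all promoters. The other 8 start sites, Cd163 among them, held none of these letters. The matches are descriptions of the windows and not evidence of binding.

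How many of the 6 markers a cell carried was counted as a description, since these genes were chosen as markers of the cluster. At least 4 of them had a UMI in 231 R2 cells (90.9%, 86.7 to 94.2%), against 177 of 2026 other UBM cells (8.74%, 7.54 to 10.1%). At least 5 were found in 73.6% of R2 cells and 2.42% of the other UBM cells. After thinning, at least 4 were found in 75.6% of R2 cells, 19.4% of RP3 cells and 4.11% of all other UBM cells. All 6 were found in 35.4% of R2 cells and 4.50% of RP3 cells, and after thinning in 8.54% of R2 cells and 1.14% of RP3 cells.

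**Figure D2:**
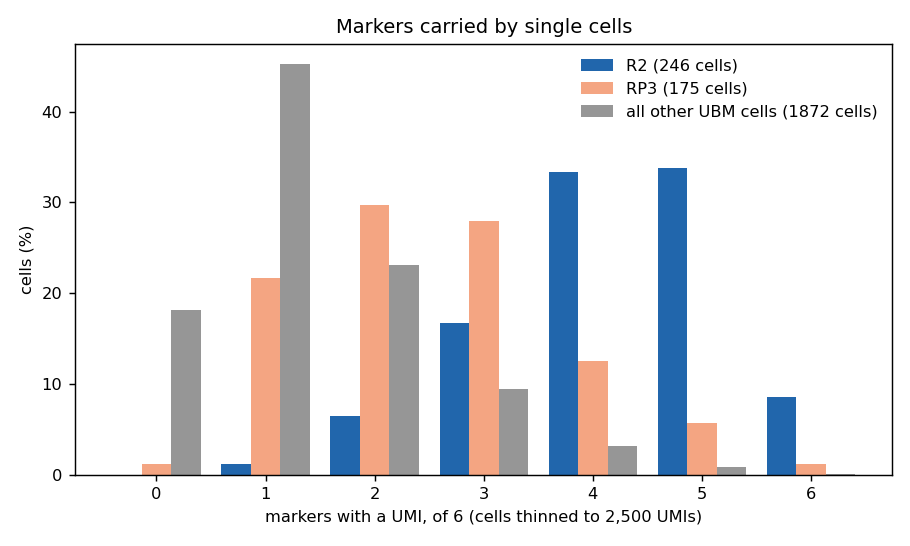
Share of cells (vertical axis, %) by the number of the 6 markers with at least 1 UMI (horizontal axis) after each cell was thinned to 2500 UMIs, in R2 (246 cells), RP3 (175 cells) and all other UBM cells (1872 cells, RP3 included). At least 4 markers were found in 75.6% of R2, 19.4% of RP3 and 4.11% of all other UBM cells.

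Across the transcriptome, 2521 genes had at least 50 CPM in R2 or in the other UBM cells. Of these, 142 were at least 2-fold higher in R2 after adding 10 CPM (5.63%) and 151 at least 2-fold lower (5.99%). R2 was the highest of the 8 clusters for 114 of the 142 and the lowest for 91 of the 151. The genes were picked by these same values, so the ranks are only a description. RP3 shared part of the pattern. Of the 142, 56 were also at least 2-fold higher in RP3 than in the remaining cells and 4 at least 2-fold lower. Of the 151, 89 were at least 2-fold lower in RP3 and none at least 2-fold higher. The same counts over all 2521 genes are not given here, so no background share stands beside them. The last gene inside the 15 highest was Rnase4, at a log2 ratio of 2.33, and the first outside was Fcgrt, at 2.27.

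The 15 highest genes were the 6 markers and 9 others. Gm37800, a long intergenic non-coding RNA in the GENCODE annotation, stood at 197 CPM in R2 and 1.53 CPM in the other UBM cells, but only 22.8% of R2 cells had a UMI of it, against 0.691% of the other UBM cells (16.3% of R2 cells and 0.214% of the other UBM cells after thinning). Msx3, a homeobox transcription factor, was more widely spread in R2, at 214 CPM in R2 and 9.02 CPM in the other UBM cells (23.7-fold, 19.3 to 29.5), with a UMI in 71.3% of R2 cells and 3.90% of the other UBM cells. After thinning, Msx3 had a UMI in 40.2% of R2 cells and 1.98% of the other UBM cells. Scn3a, an alpha subunit of voltage-gated sodium channels, stood at 86.0 CPM in R2 and 2.66 CPM in the other UBM cells. R2 held 80.5% of the Msx3 UMIs and 84.9% of the Scn3a UMIs of the library.

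Rcn3, a calcium-binding protein of the endoplasmic reticulum, stood at 314 CPM in R2 and 33.4 CPM in the other UBM cells, and RP3 nearly matched R2 at 309 CPM. Cbr2, a carbonyl reductase, stood at 1004 CPM in R2 and 126 CPM in the other UBM cells. Chil3 (Ym1, a chitinase-like protein made in response to interleukin-4) stood at 1762 CPM in R2 and 260 CPM in the other UBM cells. Ch25h, which makes 25-hydroxycholesterol, stood at 94.8 CPM in R2 and 9.50 CPM in the other UBM cells, with a UMI in 14.2% of R2 cells (8.94% after thinning) and 14.6% of its R2 UMIs in 1 cell. Lyve1, the hyaluronan receptor of perivascular macrophages, and Rnase4 stood at 183 and 717 CPM in R2, against 240 and 728 CPM in RP3, and were the 2 of the 15 for which RP3 stood higher than R2. With equal weight for each other cluster, the log2 ratio was 2.21 for Rcn3, against 2.90 as reported, and 1.87 for Lyve1, against 2.56.

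The 15 lowest genes held enzymes and receptors of lipid-laden and matrix-degrading macrophages. Mmp12, the macrophage elastase, stood at 46.2 CPM in R2 and 1330 CPM in the other UBM cells (28.8-fold lower in R2, 23.6 to 35.4). Mmp13, a collagenase, had 1 UMI in R2 and stood at 87.5 CPM in the other UBM cells, a 189-fold difference with an interval of 33.9 to 7481. Lipoprotein lipase (Lpl) stood at 80.4 CPM in R2 and 1439 CPM in the other UBM cells, and the fatty acid transporter Cd36 at 43.5 CPM in R2 and 716 CPM in the other UBM cells.

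The same direction held for the transmembrane glycoprotein Gpnmb (18.03 CPM in R2, 443 CPM in the other UBM cells), for osteopontin, Spp1 (146 CPM in R2, 2038 CPM in the other UBM cells), for the fatty acid binding protein Fabp4 (3.24 CPM in R2, 91.9 CPM in the other UBM cells) and for the tetraspanin Cd9 (40.7 CPM in R2, 357 CPM in the other UBM cells). The integrin Itgax (CD11c) stood at 8.78 CPM in R2 and 98.8 CPM in the other UBM cells. The lectin genes Clec12a and Clec4b1 stood at 5.55 and 2.31 CPM in R2, against 167 and 69.9 CPM in the other UBM cells. The actin-binding protein Lsp1, the potassium channel Kcnn4 and annexin A1 (Anxa1) were between 6.08-fold and 14.8-fold lower in R2. The adaptor Stap1 had 2 UMIs in R2 and was 61.5-fold lower, with an interval of 16.9 to 508. R2 was the lowest cluster for 13 of the 15, RP3 being lower for Mmp12 (16.5 CPM) and Itgax (6.18 CPM). The ratio of R2 to RP3 had an interval that included equality for Itgax, Fabp4, Cd9 and Kcnn4, so these could not be ordered. Low levels were thus largely shared with RP3, which had 121 CPM of Lpl, 66.0 CPM each of Cd36 and Gpnmb, 56.7 CPM of Cd9 and 7.21 CPM of Fabp4. Clec4b1, at 61.8 CPM in RP3, was nearer to the other UBM cells.

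**Figure D3:**
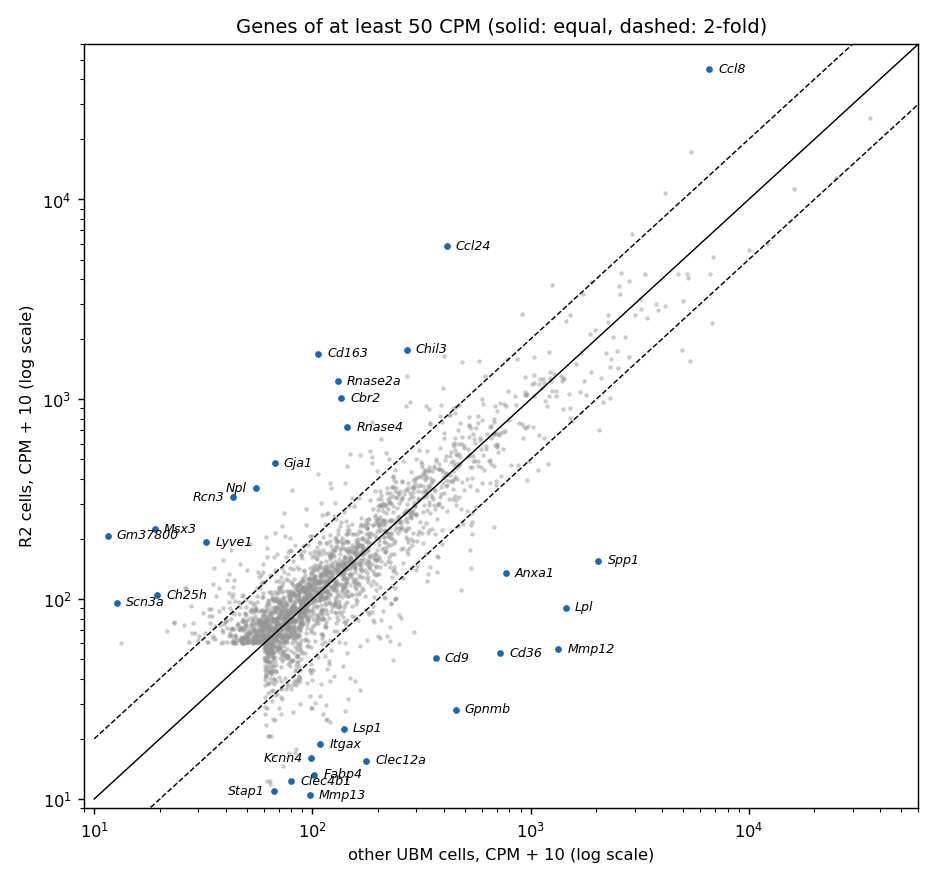
Level of each gene of at least 50 CPM in R2 (vertical axis, CPM + 10, log scale) against the other UBM cells (horizontal axis, CPM + 10, log scale); grey points are genes, blue points the 15 highest and 15 lowest, the solid line is equality and the dashed lines a 2-fold difference. Ccl8 lies at the top right with 44733 CPM in R2, and Mmp12, Gpnmb and Lpl lie farthest below the line.

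**Figure D4:**
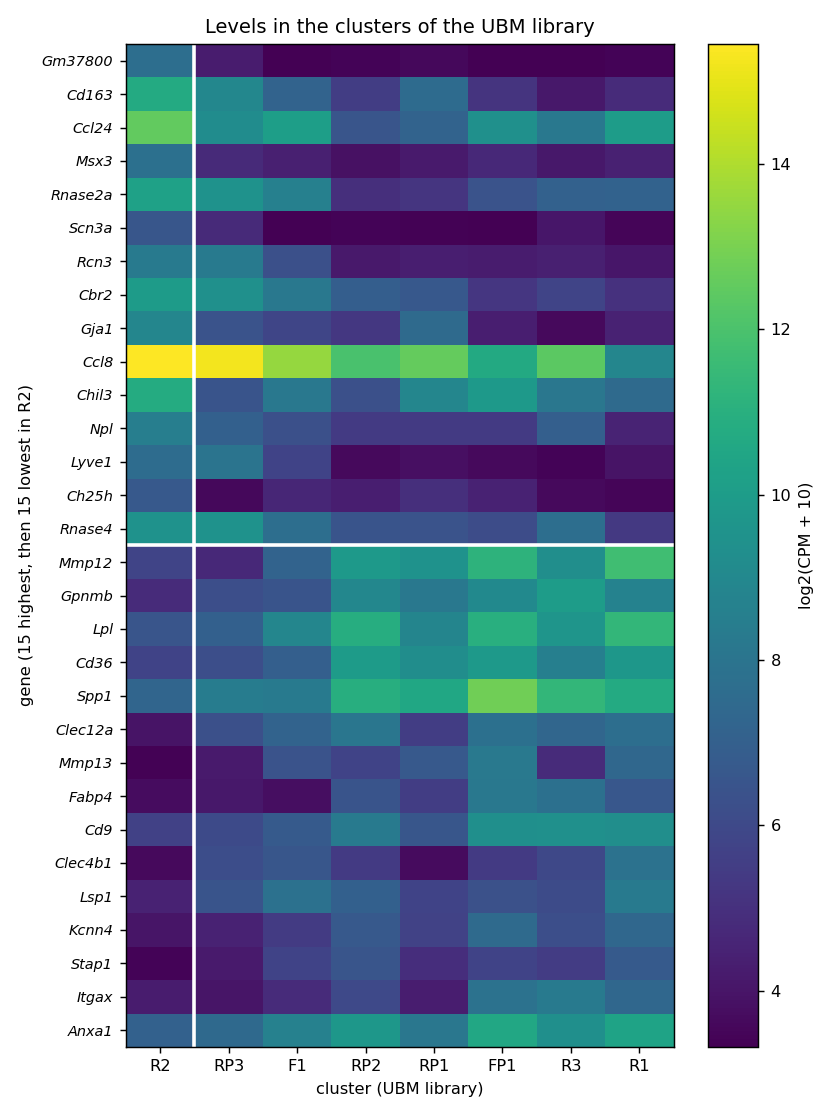
Level of the 15 highest (above the white line) and 15 lowest genes of R2 in each UBM cluster of at least 20 cells, as log2(CPM + 10) in colour, with R2 in the leftmost column. RP3 is the second highest cluster for 9 of the 15 highest genes.

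For gene lists, members needed 10 CPM in R2 or in the other UBM cells, and a member was counted at 1.5-fold or more after adding 10 CPM. A member that passed only on the side where it was high could hardly be counted on the opposite side. Among all 7130 genes so measured, 7.66% were higher and 8.36% lower in R2, and the median log2 ratio was 0.04. Chemokines split by family. Of 10 measured CC chemokines, 7 were higher and 3 lower in R2 (median log2 ratio 1.48), whereas all 8 measured CXC chemokines were lower (median -1.20). The split was smaller against RP3, the cluster most like R2, where members needed 10 CPM in R2 or in RP3. There 2 of 10 measured CC chemokines were higher in R2 and 3 lower (median 0.48). Of 5 measured CXC chemokines, 1 was higher in R2 than in RP3 and 1 lower (median 0.11). Among all 7198 genes so measured, 10.9% were higher in R2 than in RP3 and 9.13% lower.

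Among the CC chemokines, Ccl12, a monocyte attractant encoded beside Ccl8, stood at 1643 CPM in R2 and 390 CPM in the other UBM cells, with F1 higher still at 2799 CPM. The other higher members, named after their values were seen, were Ccl2, Ccl7, Ccl6 and Ccl9, between 2.05-fold and 3.21-fold higher in R2. Ccl6 stood at 10717 CPM in R2 and 7769 CPM in RP3, and Ccl7 at 3737 CPM in R2 and 2592 CPM in RP3. The 3 lower members were the inflammatory chemokines Ccl3, Ccl4 and Ccl5, with Ccl3 at 18.5 CPM in R2 and 88.5 CPM in the other UBM cells, Ccl4 at 134 CPM in R2 and 336 CPM in the other UBM cells, and Ccl5 at 7.40 CPM in R2 and 40.9 CPM in the other UBM cells. Among the CXC chemokines, the neutrophil attractants Cxcl1 and Cxcl3 stood at 101 and 16.6 CPM in R2, against 471 and 102 CPM in the other UBM cells. RP3 had 92.7 CPM of Cxcl1 and 7.21 CPM of Cxcl3. Ppbp stood at 4.62 CPM in R2 and 63.3 CPM in the other UBM cells. Of 5 measured chemokine receptors, Ccr1 was higher in R2 (129 CPM in R2, 57.3 CPM in the other UBM cells) and 3 were lower, Cxcr4 by most (27.3 CPM in R2, 74.0 CPM in the other UBM cells).

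Of the ribonuclease A family, 3 of 4 measured members were higher in R2 and none lower. Besides Rnase2a, Rnase4 stood at 717 CPM in R2 and 135 CPM in the other UBM cells, and angiogenin (Ang) at 166 CPM in R2 and 32.4 CPM in the other UBM cells. RP3 slightly exceeded R2 for both, at 728 CPM of Rnase4 and 179 CPM of Ang. Ear2, an eosinophil-associated ribonuclease like Rnase2a, stood at 142 CPM in R2 and 148 CPM in the other UBM cells, and changed sign when R3 and F2 were left out. Ang and Rnase4 overlap in the RefSeq annotation, and the eosinophil-associated ribonucleases have near-identical copies, so the division of counts among these genes is uncertain.

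Genes that handle haemoglobin, haem and iron stood on both sides. Of 14 measured members, 4 were higher in R2 and 5 lower. On the uptake side, Cd163 was joined by the transferrin receptor Tfrc (139 CPM in R2, 36.5 CPM in the other UBM cells) and its partner Hfe (258 CPM in R2, 108 CPM in the other UBM cells). In RP3, Tfrc stood at 80.4 CPM and Hfe at 280 CPM. Hmox1, which degrades haem, stood at 995 CPM in R2 and 589 CPM in the other UBM cells, and 11.1% of its R2 UMIs lay in 1 cell. The ferritin chains Fth1 and Ftl1 stood at 5963 and 12793 CPM in R2, against 12065 and 24990 CPM in the other UBM cells. The haemopexin receptor Lrp1 (51.8 CPM in R2, 216 CPM in the other UBM cells), the metal transporter Slc11a1 and the haem transporter Slc48a1 were lower too.

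Sialic acid genes had 4 of 9 measured members higher in R2 and none lower. Npl was followed by Siglec1, a sialic-acid-binding receptor (28.7 CPM in R2, 9.34 CPM in the other UBM cells), and by Renbp, which converts N-acetylmannosamine (105 CPM in R2, 60.3 CPM in the other UBM cells). RP3 stood higher than R2 for Siglec1, at 59.8 CPM. Cmas, which activates sialic acid for transfer, stood at 31.0 CPM in R2 and 48.3 CPM in the other UBM cells, short of the 1.5-fold count after adding 10 CPM.

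Of 20 measured genes of alternative activation, the response to interleukin-4 and interleukin-13, 9 were higher in R2 and 3 lower. Chil3 and its close copy Chil4 led, with Chil4 at 30.5 CPM in R2 and 0.563 CPM in the other UBM cells, with the division of counts between them uncertain. Il4ra, the interleukin-4 receptor chain, stood at 521 CPM in R2 and 138 CPM in the other UBM cells (3.76-fold, 3.49 to 4.06), and R2 was the highest cluster. Retnla, a secreted effector of interleukin-4, stood at 17326 CPM in R2 and 5421 CPM in the other UBM cells, below RP3 at 23642 CPM. The lower members were Cd36, the scavenger receptor Msr1 (45.8 CPM in R2, 112 CPM in the other UBM cells) and the interleukin-13 receptor chain Il13ra1 (4.62 CPM in R2, 19.5 CPM in the other UBM cells). Of 23 measured cytokine receptors, 5 were higher in R2, with Il2rg (the common gamma chain) and Il21r after Il4ra, at 80.9 and 48.5 CPM in R2, against 39.6 and 24.1 CPM in the other UBM cells.

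In the arginine and polyamine list, 3 of 13 measured members were higher in R2 and 1 lower. The arginine transporter Slc7a2 stood at 413 CPM in R2 and 95.9 CPM in the other UBM cells. Ornithine decarboxylase (Odc1) stood at 195 CPM in R2 and 102 CPM in the other UBM cells, and the spermidine synthase Srm at 50.4 CPM in R2 and 28.0 CPM in the other UBM cells. The lower member was the spermine synthase Sms, at 25.4 CPM in R2 and 65.5 CPM in the other UBM cells.

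Surface receptors were divided as well. Of 16 measured C-type lectins, 3 were higher in R2 and 7 lower. The higher ones were the mannose receptor Mrc1 (2657 CPM in R2, 908 CPM in the other UBM cells) and the galactose-binding lectins Mgl2 (964 CPM in R2, 270 CPM in the other UBM cells) and Clec10a (503 CPM in R2, 179 CPM in the other UBM cells). Clec10a was higher still in RP3, at 873 CPM, while Mrc1 and Mgl2 stood at 1502 and 813 CPM in RP3. The lowest after Clec12a and Clec4b1 was Clec4d, which recognises mycobacterial glycolipids, at 17.6 CPM in R2 and 132 CPM in the other UBM cells. Of 7 measured Fc receptors, 2 were higher and none lower: Fcgrt, the neonatal Fc receptor that recycles antibody and albumin (1300 CPM in R2, 262 CPM in the other UBM cells), and the inhibitory receptor Fcgr2b (1542 CPM in R2, 571 CPM in the other UBM cells). Fcgr2b had a UMI in every R2 cell. Fcgrt stood slightly higher in RP3 than in R2, at 1368 CPM, and Fcgr2b stood at 1344 CPM in RP3. Rcn3 and Fcgrt are neighbours in the RefSeq annotation and both were high in R2. Of 7 measured Ms4a tetraspan genes, 5 were higher in R2 and none lower, among them Ms4a8a (66.1 CPM in R2, 18.4 CPM in the other UBM cells) and Ms4a4a (57.3 CPM in R2, 19.1 CPM in the other UBM cells). In RP3 these 2 genes stood at 79.3 and 50.5 CPM.

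Of 20 measured resident-macrophage genes, 9 were higher in R2 and 5 lower. Gas6, a bridge between dying cells and their receptors, and Stab1, a scavenger receptor, stood at 519 and 351 CPM in R2, against 155 and 112 CPM in the other UBM cells. RP3 had 665 CPM of Gas6 and 349 CPM of Stab1. Cd5l, an apoptosis inhibitor secreted by macrophages, was lowest, at 7.86 CPM in R2 and 73.9 CPM in the other UBM cells. Gas6 and Stab1 were the only 2 higher in R2 among 19 measured genes of efferocytosis, the clearance of dead cells, and 10 were lower. The lower ones included Cd36, Anxa1 and the bridging protein Mfge8 (6.94 CPM in R2, 68.3 CPM in the other UBM cells). In the complement list, 3 of 14 measured members were higher in R2 and 2 lower, with the central component C3 at 114 CPM in R2 and 33.8 CPM in the other UBM cells and the receptor C3ar1 at 203 CPM in R2 and 527 CPM in the other UBM cells.

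Among inflammatory cytokines, 2 of 12 measured members were higher in R2 and 6 lower. Il6 stood at 104 CPM in R2 and 16.3 CPM in the other UBM cells (6.34-fold, 5.22 to 7.70), with a UMI in 17.5% of R2 cells and 3.04% of the other UBM cells after thinning (32.7% and 4.69% before it, in the same order). Osm (oncostatin M, of the same cytokine family) stood at 372 CPM in R2 and 110 CPM in the other UBM cells. The lower ones included the interleukin-1 receptor antagonist Il1rn (15.3 CPM in R2, 56.2 CPM in the other UBM cells), the cyclooxygenase Ptgs2 (5.55 CPM in R2, 32.7 CPM in the other UBM cells) and the costimulatory ligand Tnfsf9 (6.94 CPM in R2, 26.8 CPM in the other UBM cells). R2 was the highest cluster for both Il6 and Osm.

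Of 17 measured growth factors, 5 were higher in R2 and 6 lower. Hbegf and Nrg1, ligands of the epidermal growth factor receptor family, stood at 344 and 82.3 CPM in R2, against 70.8 and 17.7 CPM in the other UBM cells. Pdgfc stood at 67.0 CPM in R2 and 29.7 CPM in the other UBM cells, with RP3 higher than R2 at 90.7 CPM. The lowest were Gdf3 (5.09 CPM in R2, 37.5 CPM in the other UBM cells), the angiogenic factor Vegfa (37.5 CPM in R2, 109 CPM in the other UBM cells) and the stress-induced Gdf15 (10.6 CPM in R2, 36.9 CPM in the other UBM cells).

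Of 19 measured genes of matrix and matrix breakdown, 4 were higher in R2 and 10 lower. The metalloproteinase inhibitors Timp1 and Timp2 were the highest, at 221 and 1578 CPM in R2, against 62.5 and 770 CPM in the other UBM cells. In RP3, Timp1 stood at 43.3 CPM and Timp2, as in R2, at 1576 CPM. Plau, the urokinase plasminogen activator, stood at 19.9 CPM in R2 and 7.49 CPM in the other UBM cells. The lowest were the metalloproteinases Mmp12 and Mmp13 and osteopontin, Spp1.

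The lipid genes linked to Trem2-type macrophages had 15 of 24 measured members lower in R2 and 1 higher (median log2 ratio -0.92). The exception was the fatty acid binding protein Fabp5, at 2631 CPM in R2 and 1508 CPM in the other UBM cells. In the lysosome list, where 22 of 27 measured members lay within 1.5-fold, the acid lipase Lipa stood at 55.5 CPM in R2 and 190 CPM in the other UBM cells and prosaposin (Psap) at 1751 CPM in R2 and 4928 CPM in the other UBM cells. Among the cathepsin genes and their relatives, legumain (Lgmn) stood at 2446 CPM in R2 and 1440 CPM in the other UBM cells, with R2 the highest cluster, and cathepsin K (Ctsk) at 29.1 CPM in R2 and 110 CPM in the other UBM cells. RP3 had 2037 CPM of Lgmn.

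Antigen presentation by MHC class II had 6 of 8 measured members lower in R2 and 1 higher. H2-Ab1 stood at 769 CPM in R2 and 1538 CPM in the other UBM cells, H2-Aa at 797 CPM in R2 and 1514 CPM in the other UBM cells, and H2-DMb1 at 68.4 CPM in R2 and 179 CPM in the other UBM cells. For both H2-Ab1 and H2-Aa, R2 stood below R1, F1, R3 and RP3 and above FP1, RP2 and RP1. The costimulatory receptor Cd40 was the higher one, at 48.5 CPM in R2 and 26.6 CPM in the other UBM cells.

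Of 29 measured genes of glycolysis and hypoxia, 22 were lower in R2 and 1 higher. The higher one was the regulator Hif1a, at 227 CPM in R2 and 104 CPM in the other UBM cells. Its well-known targets Ndrg1 (31.4 CPM in R2, 116 CPM in the other UBM cells) and Ankrd37 (30.5 CPM in R2, 139 CPM in the other UBM cells) and the glycolytic enzyme Aldoa (462 CPM in R2, 1192 CPM in the other UBM cells) were the lowest. The Hif1a transcript thus stood on the other side from most of the list. In the list of Nrf2 antioxidant genes, 6 of 18 measured members were lower in R2 and 1, Hmox1, higher.

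Among 32 measured transcription factors of macrophages, 5 were higher in R2 and 9 lower. Maf, which maintains resident macrophages, stood at 1128 CPM in R2 and 387 CPM in the other UBM cells, with a UMI in 90.2% of R2 cells and 54.5% of the other UBM cells after thinning (99.6% and 73.2% before it, in the same order). RP3 was close to R2, with 984 CPM of Maf. Id3 stood at 27.7 CPM in R2 and 5.71 CPM in the other UBM cells, and its relative Id2 at 127 CPM in R2 and 363 CPM in the other UBM cells. Pparg, a regulator of lipid uptake, and Bhlhe41 had 3.24 and 0.462 CPM in R2, against 21.9 and 14.7 CPM in the other UBM cells. A list of genes tied to interleukin-10 or glucocorticoids, receptors among them, had none of 19 measured members higher in R2 and 3 lower. Among all 7130 genes measured, 7.66% were higher and 8.36% lower. Il10 itself stood at 31.4 CPM in R2 and 28.5 CPM in the other UBM cells, and the glucocorticoid target Fkbp5 at 12.9 CPM in R2 and 7.32 CPM in the other UBM cells.

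The lists for interferon response, eicosanoids, cell cycle and handling stress had between 1 and 2 members higher and between 2 and 5 lower in R2. Ly6e, an interferon-induced surface protein, stood at 754 CPM in R2 and 338 CPM in the other UBM cells, with RP3 higher than R2 at 1705 CPM. Ptgs1, the constitutive cyclooxygenase, stood at 75.4 CPM in R2 and 39.0 CPM in the other UBM cells, on the other side from Ptgs2. RP3 had 88.6 CPM of Ptgs1. Tyms, which makes thymidylate for DNA synthesis, stood at 27.7 CPM in R2 and 8.69 CPM in the other UBM cells, and 1 of 20 measured cell cycle genes was higher. Of 22 measured genes of handling stress, 5 were lower in R2, such as Jun at 129 CPM in R2 and 226 CPM in the other UBM cells, and only Ier3 was higher, at 665 CPM in R2 and 389 CPM in the other UBM cells. RP3 stood above R2 for Ier3, at 760 CPM.

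**Figure D5:**
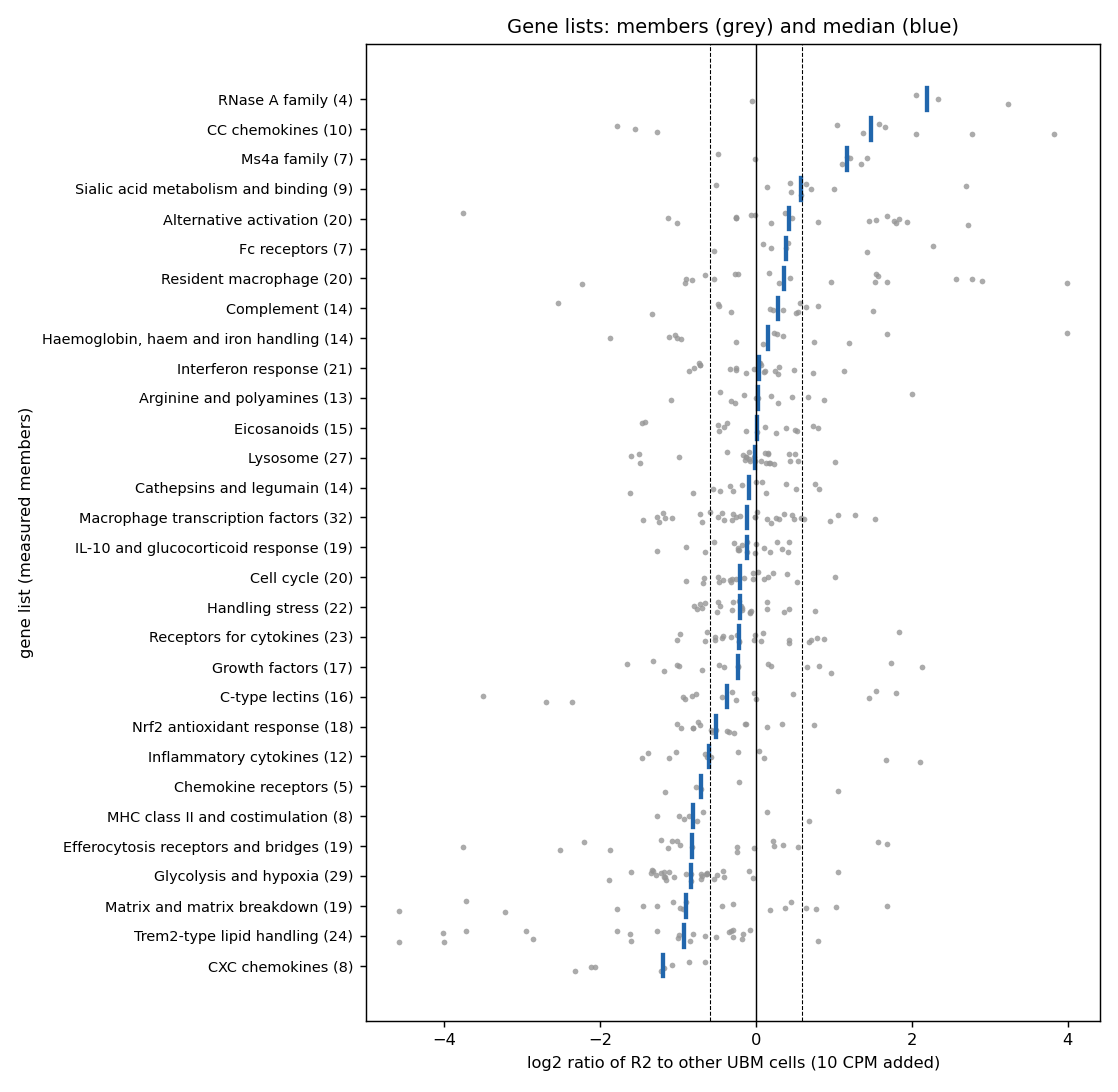
Log2 ratio of R2 to the other UBM cells with 10 CPM added (horizontal axis) for the measured members (grey points) of each gene list with more than 1 measured member (vertical axis, number measured in parentheses); the blue bar is the list median and the dashed lines mark 1.5-fold. The ribonuclease, CC chemokine and Ms4a lists lie highest, with medians of 2.19, 1.48 and 1.17, and the CXC chemokines lowest, with a median of -1.20.

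RP3, with 200 UBM cells, was the cluster most like R2 (Pearson r = 0.93 across 3390 genes of log2 levels, a description that rests on genes of 1 library), followed by F1 (0.89, 43 cells). Of 2525 genes compared with RP3, 91 were at least 2-fold higher in R2 (3.6%) and 117 lower (4.63%). By log2 ratio with 10 CPM added, Chil3 was the highest in R2 against RP3, at 1762 CPM in R2 and 78.3 CPM in RP3 (22.5-fold, 17.9 to 28.6). Hbegf stood at 344 CPM in R2 and 24.7 CPM in RP3 (13.9-fold, 9.26 to 21.8), Ccl24 at 5847 CPM in R2 and 584 CPM in RP3, Msx3 at 214 CPM in R2 and 17.5 CPM in RP3, and Chchd10, a mitochondrial protein, at 259 CPM in R2 and 24.7 CPM in RP3. Fabp5 stood at 2631 CPM in R2 and 372 CPM in RP3. These genes separate R2 from the cluster that shares its Ccl8, Rcn3 and Stab1.

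On the RP3 side stood the lectins of the Cd209 family. Cd209d stood at 16.6 CPM in R2 and 413 CPM in RP3 (24.8-fold lower in R2), with a UMI in 3.94% of R2 cells, and Cd209f stood at 5.55 CPM in R2 and 236 CPM in RP3, all 12 R2 UMIs being in 1 cell. Apolipoprotein E (Apoe), abundant in both, stood at 5577 CPM in R2 and 28828 CPM in RP3. The linked membrane proteins Tmem176a and Tmem176b stood at 86.9 and 101 CPM in R2, against 510 and 613 CPM in RP3.

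Against RP3, with 10.9% of 7198 genes at least 1.5-fold higher and 9.13% lower in R2, the glycolysis and hypoxia list had 15 of 28 measured members higher in R2 than in RP3 and none lower (median log2 ratio 0.68), opposite to its direction against all other UBM cells. The arginine and polyamine list had 5 of 12 measured members higher in R2 than in RP3 and none lower. Arg1 (arginase), named after its value was seen, stood at 3882 CPM in R2, 931 CPM in RP3 and 2815 CPM in the other UBM cells together. On the lower side, 14 of 19 measured C-type lectins, 7 of 9 MHC class II genes, 13 of 24 resident-macrophage genes and 16 of 22 genes of handling stress were lower in R2 than in RP3. Members needed 10 CPM in R2 or in RP3. Those that passed only through RP3, such as Cd209f (5.55 CPM in R2, 236 CPM in RP3), could hardly be counted otherwise. Genes of the Cd209 family were in both the lectin and the resident-macrophage lists. Median mitochondrial UMIs were 3.24% in R2 and 4.15% in RP3, and median depth was 8365 UMIs in R2 and 4193.5 UMIs in RP3. The part of these in the comparison was not tested.

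Against F1, 153 of 2673 genes were at least 2-fold higher in R2 (5.72%) and 208 lower (7.78%). Cd163 stood at 1683 CPM in R2 and 138 CPM in F1 (12.2-fold, 8.89 to 17.3), Gja1 at 468 CPM in R2 and 47.1 CPM in F1, and the dehydrogenase Aldh7a1 at 103 CPM in R2 and 7.24 CPM in F1. The 8 lowest genes were Rsad2, Ifit2, Cxcl10, Ifit1, Ms4a4c, Isg15, Ifit3 and Cmpk2, most of them interferon-induced antiviral genes. Rsad2 stood at 12.9 CPM in R2 and 569 CPM in F1, and Isg15 at 54.1 CPM in R2 and 768 CPM in F1.

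R2 cells were not alike. For 684 genes of at least 200 CPM in R2, the variance of UMIs over cells was a median of 1.62 times that expected from counting alone, and it was over 2 times for 258. At an equal relative spread this ratio rises with the level of a gene, so its order is not one of relative spread. Retnla had the highest ratio, at 205 times, with a median of 82.5 and a maximum of 1136 UMIs per cell, followed by Ccl8 at 179 times. Cd74, the MHC class II chaperone, came next at 88.3 times, with a median of 6 UMIs and a maximum of 384. H2-Ab1 varied by 42.9 times the counting expectation, and 1 R2 cell held 10.6% of the H2-Ab1 UMIs of R2.

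The acute-phase gene Saa3 was a case of few cells. It had a UMI in 15.7% of R2 cells, and 1 cell held 179 UMIs, which is 37.8% of all its UMIs in R2. Ccl24 and Chil3 varied by 67.3 and 66.8 times the counting expectation. The 10 genes highest by this ratio also held the nuclear RNA Malat1, the ferritin light chain Ftl1, Fabp5 and Wfdc17.

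Pairs of genes were set side by side in the 246 thinned R2 cells. Npl was found in 51.0% of the 196 cells with Cd163 and in 24.0% of the 50 cells without it, and Gja1 in 59.2% of those with Cd163 and in 18 of the 50 without it. Other marker pairs went the other way: Npl was found in 43.9% of the 214 cells with Ccl24 and 56.2% of the 32 without it, and in 39.6% of the 134 cells with Gja1 and 52.7% of the 112 without it. Rnase2a was found in 48.5% of the cells with Gja1 and 54.5% of those without it. Chil3 was found in 56.5% of the 214 cells with Ccl24 and 28.1% of the 32 without it. The 40 cells with Gm37800 had Npl in 67.5% and Rnase2a in 14 of 40, whereas the 206 cells without it had Npl in 41.3% and Rnase2a in 54.4%. Retnla was found in 98.4% of the 126 cells with Rnase2a and in 85.0% of the 120 cells without it. These shares come from cells of 1 library and are given without a test.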

How the data were processed

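Macrophage libraries were made with a 10x 3' droplet kit, 1 per treatment. UMI counts, not normalized, were deposited by the authors as a matrix of 13242 genes by 4374 cells, and the labels of condition and cluster came in a separate deposited file. The submitters' processing notes name Cell Ranger, without a version, and Seurat 2. Those notes list build hg38 although the symbols are those of mouse; 12816 symbols (96.8%) matched RefSeq GRCm38.p6, used for names, neighbours and promoters. How the authors filtered cells and treated doublets is not stated in those notes, and no doublet caller was run.

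UMIs were summed over R2 and over the other UBM cells and divided by that sum, per 1000000 (CPM). Intervals are exact Poisson for CPM, exact conditional binomial for ratios and Clopper-Pearson for shares, at 95%. UMIs of a cell are not independent of its state, so they cover counting error only. Ratios given as folds have nothing added; log2 ratios and counts of genes have 10 CPM added. Mitochondrial (13) and ribosomal protein (99) genes were left out of the 2-fold counts. A count of 0 allows up to 1.39 CPM in R2 and 0.241 CPM in the other UBM cells (3 UMIs).

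Named genes were the 6 markers, the 15 highest and 15 lowest among genes of at least 50 CPM, the 3 highest and 3 lowest measured members of each of 31 lists, the 8 highest and 8 lowest against each of the 2 closest clusters, and the 10 genes with the highest ratio of variance to the counting expectation. The members, markers and lists were chosen with earlier results of these data known. Alternatives changed the scaling (TMM factors of edgeR 4.0.16, R 4.3.3, with no test), the genes in the total, the weight of cells or clusters, the added CPM, the minimum CPM and the cells kept. The calculation was tested on simulated data. Python 3.11.15, numpy 2.4.6, scipy 1.17.1 and pandas 2.3.3 were used. Some genes are not reported here.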

Additional observations from a re-analysis of the deposited data

How the results depend on the processing

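Across the alternatives, the number of genes at least 2-fold higher in R2 than in the other UBM cells ranged from 114 to 192, against 142 as reported, and the number at least 2-fold lower from 126 to 243, against 151. The only count that moved by over 1.5 times was that of lower genes with no minimum CPM, at 243. The share of R2 was 10.7% of UBM cells without the cells above 13534 UMIs and 10.9% without those over 10% mitochondrial UMIs. All 15 highest genes kept a log2 ratio above 0 and all 15 lowest a ratio below 0 in the 8 alternatives run for genes. Of these genes, Rnase2a, Rcn3 and Lyve1 moved by over 1.5 times with equal weight for each other cluster, 4 of the highest and 8 of the lowest moved away from 0 by over 1.5 times with 1 CPM added in place of 10, and none did in the other alternatives. The medians of the interferon, cell cycle, arginine, eicosanoid and lysosome lists changed sign in at least 1 alternative. No scaling moved the median of all genes by more than 0.08 on the log2 scale. With 1 library per treatment and all R2 cells in UBM, the spread between mice or libraries is unknown, and a property of the treatment cannot be told apart from one of the library. No paired analysis was possible because there was 1 library per treatment.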

Other observations

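Genes for folding and quality control of secreted proteins in the endoplasmic reticulum were gathered after their values were seen, so their count is a description and supports nothing. Of 23 measured genes, 17 were at least 1.5-fold higher in R2 than in the other UBM cells after adding 10 CPM and none was lower, with a median log2 ratio of 0.92; among all 7130 genes measured, 7.66% were higher and 8.36% lower. The disulfide isomerases Pdia6 and Pdia4 stood at 623 and 538 CPM in R2, against 195 and 173 CPM in the other UBM cells. Manf, a secreted factor induced by stress of this compartment, stood at 472 CPM in R2 and 177 CPM in the other UBM cells, and the chaperone Hspa5 (BiP) at 924 CPM in R2 and 378 CPM in the other UBM cells. Xbp1, a transcription factor of the unfolded protein response, stood at 228 CPM in R2 and 142 CPM in the other UBM cells. RP3 stood lower than R2 for Pdia6, Pdia4, Manf and Hspa5, at 232, 193, 204 and 567 CPM. Other members were closer: Rcn3 stood at 314 CPM in R2 and 309 CPM in RP3, Dnajc3 at 176 and 148 CPM, and Canx at 317 and 276 CPM, in the same order.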
